A study of Mus musculus with 16 samples.

Results

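The dual specificity MAP kinase phosphatases of mouse bone marrow were followed through 7 genes, *Dusp1*, *Dusp2*, *Dusp4*, *Dusp5*, *Dusp6*, *Dusp7* and *Dusp10*. They were picked by gene symbol, with earlier results of these data known, and they are 7 of the 27998 genes listed for every library. Each lies on a chromosome of its own (GRCm38, GENCODE gene bounds): *Dusp1* at chr17:26505590-26562128 (minus strand), *Dusp2* at chr2:127336159-127338376 (plus strand), *Dusp4* at chr8:34807297-34819894 (plus strand), *Dusp5* at chr19:53529109-53542431 (plus strand), *Dusp6* at chr10:99263231-99267489 (plus strand), *Dusp7* at chr9:106368632-106375724 (plus strand) and *Dusp10* at chr1:184013302-184075636 (plus strand). Single-cell RNA-seq had been done on lineage-depleted marrow of C57BL/6 mice aged 6 to 12 weeks, with 4 groups of 4 mice. WT mice carried *Tet2* fl/fl alleles without Cre, and *Tet2*-KO mice (Vav-Cre-*Tet2*-/-) lost *Tet2* where the Vav promoter is active, which is the hematopoietic system. Mice of each genotype received vehicle or recombinant IL-1ß, written IL1β from here on, by intraperitoneal injection at 500 ng per mouse per day for 5 weeks. Since the WT mice had no Cre, loss of *Tet2* and presence of Cre cannot be told apart. Each of the 8 libraries pooled 2 mice of 1 group (mice 1 and 2, or mice 3 and 4), which were separated here by their hashtag antibodies (not cleanly in every pool, as described below).

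MAP kinases are switched on by phosphorylation of a threonine and a tyrosine in their activation loop, and dual specificity phosphatases switch them off by removing both phosphates. *Dusp1*, *Dusp2*, *Dusp4* and *Dusp5* encode nuclear enzymes, *Dusp6* and *Dusp7* encode cytoplasmic enzymes that act mainly on ERK, and *Dusp10* encodes an enzyme that prefers JNK and p38. Several of these genes are themselves transcribed in response to MAP kinase signals, so that their transcripts serve as readouts of the pathway and as its negative feedback. IL1β signals through its receptor to NF-kB, p38 and JNK.

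After filtering, 94917 of 121405 deposited barcodes were kept, with 52915002 to 95326908 UMIs (counted transcript molecules) per library and a median of 4436 to 7363 UMIs per cell in the libraries. Gates on marker genes placed 63244 cells (66.6%) in 1 of 18 cell types, and 38607 of them were also given to a single mouse. The gates used none of the 7 phosphatase genes. HSC-like cells had at least 1 UMI of *Hlf* and low *Mpo*, *Gata1*, *Flt3* and *Ms4a3*. They also had at least 2 UMIs in the sum of *Hlf* and further stem cell transcripts (*Mecom*, *Procr*, *Slamf1*, *Hoxb5* and others), so *Hlf* alone could suffice. Their median was 2567 UMIs per cell. They numbered 2249, of which 1654 were given to mice, 16 to 221 per mouse. A second rule, the highest marker score, gave the same class to 41.9% of the HSC-like cells, as it did to 38.7% of common lymphoid progenitor-like and 39.3% of granulocyte progenitor-like cells. These 3 classes were less sharply bounded than basophil-like cells, of which 97.4% kept their class.

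Several libraries call for care. Mouse numbers rest on hashtag calls by HTODemux, and an alternative rule, a hashtag count at least 3 times the other, gave the same mouse to 98.5% of the 38239 cells that both rules called. The rules differed in which cells they called. In the pool of WT vehicle mice 1 and 2 they gave 4159 and 698 cells to the mice by HTODemux and 75 and 4304 by ratio, in that of *Tet2*-KO vehicle mice 1 and 2 4214 and 1259 against 62 and 7455, and in that of *Tet2*-KO IL1β mice 1 and 2 1426 and 4485 against 4351 and 346. In the first 2 of these pools 81.3% and 78% of the cells that both called had the same mouse, so values of single mice there are less certain than those of their pool. Hashtag calls were missing for most erythroid cells, and 1085 of 7892 erythroblast-like cells were given to a mouse. Sex is not given in the labels. Among cells given to mouse 3 of the WT IL1β group, 21.52% held a UMI of *Xist*, the transcript of the inactive X chromosome, and 55.68% held a Y-linked UMI, so this hashtag held cells of female and of male mice. Among cells of WT vehicle mouse 2 the shares were 10.6% and 48.14%. *Xist* was found in 96.56% of cells of WT vehicle mouse 1 and in 97.6% and 98.65% of those of *Tet2*-KO vehicle mice 1 and 2. The shares were 98.52% in WT IL1β mouse 4, 97.52% and 97.88% in *Tet2*-KO IL1β mice 3 and 4, and at most 0.21% in the other mice. Vehicle and IL1β mice of the same number were thus of opposite sex in *Tet2*-KO mice. In WT mice this held for mice 1 and 4, while mice 2 and 3 each set a mixed hashtag against a male mouse. IL1β differences within a pool number cannot be told apart from sex. The counted tags are 3′ and may lie outside the deleted part of *Tet2*, which was not examined, so the *Tet2* transcript is no check of the genotype. In HSC-like cells it ranged from 32.3 to 75.2 CPM (UMIs of a gene per 1000000 UMIs of that mouse and cell type) in WT vehicle mice and from 46.1 to 58.6 CPM in *Tet2*-KO vehicle mice. Between any 2 libraries 11 to 57 cell barcodes were shared, at most 0.512% of the smaller library.

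Promoters of the members whose transcripts rose in the IL1β comparisons below are shown so that the elements near their start sites can be seen. The sequences are RefSeq's for GRCm38.p6, whose *Dusp1* start lies within the GENCODE bounds given above, from 250 bases before to 50 bases after the gene start, and 6 of the 7 members matched an entry (*Dusp4* did not). Capitals mark matches on either strand to the cyclic AMP response element TGACGTCA or its inner part TGACG, the E box CACGTG, the CArG box bound by serum response factor, or the NF-kB element. The AP-1 element TGANTCA was searched for too and has no match in these windows. *Dusp1* lies on chromosome 17 (minus strand, window chr17:26508423-26508722), *Dusp2* on chromosome 2 (plus strand, chr2:127335909-127336208) and *Dusp5* on chromosome 19 (plus strand, chr19:53528895-53529194).
Dusp1: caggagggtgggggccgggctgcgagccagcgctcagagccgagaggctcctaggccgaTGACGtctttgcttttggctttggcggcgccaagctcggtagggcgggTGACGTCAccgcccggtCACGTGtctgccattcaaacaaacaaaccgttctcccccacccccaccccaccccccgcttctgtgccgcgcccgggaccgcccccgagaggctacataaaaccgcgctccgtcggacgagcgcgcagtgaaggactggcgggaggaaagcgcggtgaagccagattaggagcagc
Dusp2: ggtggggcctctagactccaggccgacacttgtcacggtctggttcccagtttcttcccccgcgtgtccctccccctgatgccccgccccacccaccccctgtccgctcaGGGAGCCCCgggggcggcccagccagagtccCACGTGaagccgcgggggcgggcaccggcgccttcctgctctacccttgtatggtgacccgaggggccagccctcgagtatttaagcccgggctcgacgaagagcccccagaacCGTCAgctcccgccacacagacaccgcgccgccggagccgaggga
Dusp5: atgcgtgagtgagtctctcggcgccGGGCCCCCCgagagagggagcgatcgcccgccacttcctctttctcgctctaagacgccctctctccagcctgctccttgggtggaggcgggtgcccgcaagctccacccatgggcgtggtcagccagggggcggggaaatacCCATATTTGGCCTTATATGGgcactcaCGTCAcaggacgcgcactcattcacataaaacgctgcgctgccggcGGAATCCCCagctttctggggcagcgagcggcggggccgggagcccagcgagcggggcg
The *Dusp1* window holds a full cyclic AMP response element that begins at position -143 from the gene start, an inner part at -191 and an E box at -126. A full element occurs in 1.79% of 32851 promoter windows of the same length, and an E box in 7.15%. The *Dusp2* window holds an E box at -109, an NF-kB element at -140 and an inner part TGACG on the minus strand just after the start. The *Dusp5* window holds a pair of adjoining CArG boxes at -82 and -72, an inner part TGACG on the minus strand at -55, and NF-kB elements at -225 and -9. At least 1 CArG box occurs in 1.63% of windows, and an inner part TGACG in 20.8%. NF-kB elements are common by this search, at 26.6% of windows. The windows of *Dusp6* and *Dusp7* hold an NF-kB element and no other match, and that of *Dusp10* holds none of the motifs.

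In HSC-like cells, *Dusp2* was the member that differed with IL1β in both genotypes. *Dusp2* encodes a nuclear phosphatase first described in activated lymphocytes. In WT mice 1 to 4 its level was 258, 175, 83.8 and 106 CPM with vehicle and 292, 321, 711 and 279 CPM with IL1β. The knockout mice were at 359, 73.8, 135 and 97.5 CPM with vehicle and at 572, 544, 812 and 811 CPM with IL1β. In neither genotype did the IL1β mice overlap the vehicle mice, and the IL1β mice lay above. Of the 6402 genes tested in HSC-like cells, 6.37% were placed so in WT, 8.53% in *Tet2*-KO mice and 1.72% (110 genes) in both. The groups of *Dusp1*, *Dusp5* and *Dusp6*, the other members tested there, overlapped. For *Dusp2* in WT mice, the nearest mice of the 2 groups were at 258 and 279 CPM. The second of these, WT IL1β mouse 4, had 17 HSC-like cells and 53678 UMIs, and WT IL1β mouse 2 had 18 cells. The group means were 156 ± 78.7 and 401 ± 207 CPM in WT mice, and 166 ± 131 and 685 ± 147 CPM in *Tet2*-KO mice (SD, n = 4). Tested with edgeR's quasi-likelihood method, IL1β raised the WT level by 1.49 log2 units (SE 0.37, adjusted p = 0.0142). The rise in the knockout was 1.89 log2 units (SE 0.32, adjusted p = 0.000508). Of all 6402 genes tested in HSC-like cells, 4.12% passed the adjusted p of 0.05 for IL1β in WT mice, and 8.47% did so in the knockout.

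**Figure D1:**
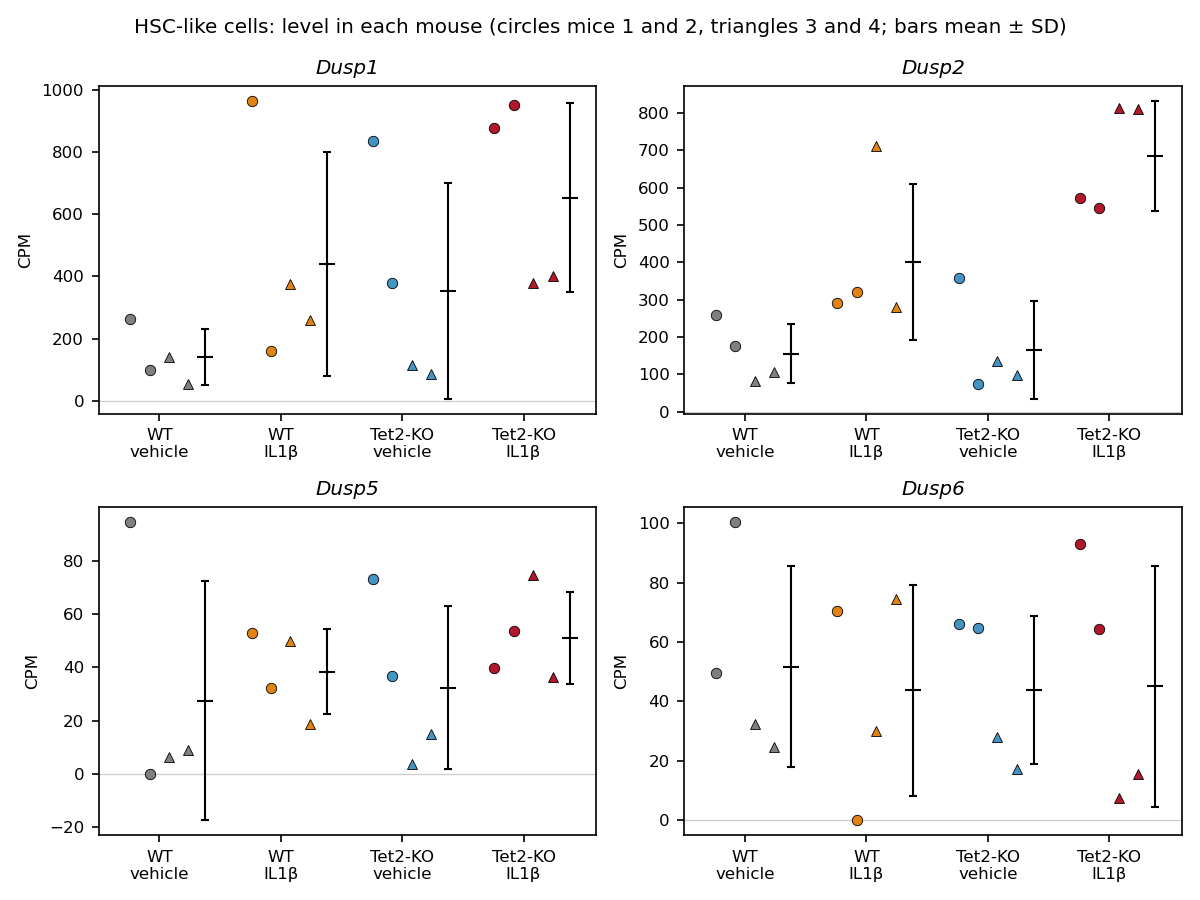
Level of *Dusp1*, *Dusp2*, *Dusp5* and *Dusp6* in HSC-like cells, 1 point per mouse (circles mice 1 and 2, triangles mice 3 and 4) in the 4 groups, with group means and bars of 1 SD (vertical axis: CPM). The IL1β mice lie above all vehicle mice of their genotype for *Dusp2* (279 to 711 against 83.8 to 258 CPM in WT mice, 544 to 812 against 73.8 to 359 CPM in *Tet2*-KO mice), while the IL1β and vehicle groups overlap for the other 3 genes.

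The size of the *Dusp2* rise in WT mice rested on the pool of mice 3 and 4. On the log2(CPM + 1) scale, the difference between IL1β and vehicle means was 0.52 in mice 1 and 2 and 2.23 in mice 3 and 4, and in *Tet2*-KO mice the same differences were 1.77 and 2.81. These differences also compare mice of opposite sex in the *Tet2*-KO groups, and partly so in the WT groups. With sex as a covariate over all mice the rises were 1.45 in WT and 1.86 in *Tet2*-KO mice, both past the threshold. Without the library of WT vehicle mice 3 and 4 the WT rise was 0.73 (adjusted p = 0.554), without that of WT IL1β mice 3 and 4 it was 1.00 (adjusted p = 0.331), and DESeq2 gave 1.31 (adjusted p = 0.149). Leaving out single mice ended the WT call for WT IL1β mouse 3 (0.95), WT vehicle mouse 3 (1.19) and WT vehicle mouse 4 (1.30). With hashtags called by ratio the rises were 2.45 in WT and 2.64 in *Tet2*-KO mice, and with each library as 1 replicate 1.67 and 1.96, all past the threshold. By ratio, vehicle mouse 1 kept only 75 cells of all types in WT and 62 in *Tet2*-KO mice, so it may drop out of that fit. Leaving out vehicle mouse 1 of the same genotype alone gave 1.96 in WT and 2.55 in *Tet2*-KO mice. In *Tet2*-KO mice the rise passed in 35 of 36 alternative settings, with values from 1.41 to 2.64, and the exception was the fit without the library of vehicle mice 3 and 4 (1.41, adjusted p = 0.0663).

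*Dusp1*, which encodes an inducible nuclear phosphatase of p38, JNK and ERK, was higher in the IL1β means but did not pass the test in HSC-like cells. Its level was 263, 100, 142 and 54.0 CPM in WT vehicle mice and 965, 160, 375 and 261 CPM in WT IL1β mice. It was 835, 378, 116 and 84.5 CPM in *Tet2*-KO vehicle mice and 878, 952, 380 and 402 CPM in *Tet2*-KO IL1β mice. The groups overlapped in both genotypes, since WT IL1β mice 2 and 4 lay below WT vehicle mouse 1 and *Tet2*-KO vehicle mouse 1 lay among the IL1β mice. The log2 fold change was 1.76 in WT mice (SE 0.54, adjusted p = 0.0595) and 0.80 in *Tet2*-KO mice (SE 0.46, adjusted p = 0.308). The WT call was not settled: it passed in 19 of 36 alternative settings, with values from 0.97 to 2.27. Without *Tet2*-KO vehicle mice 1 and 2 the *Tet2*-KO value was 2.54 and passed, and without vehicle mice 3 and 4 it was -0.04.

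The ERK phosphatases *Dusp5*, *Dusp6* and *Dusp7* were low in HSC-like cells, where a single count weighs heavily in the mice with few cells. *Dusp5*, the nuclear ERK phosphatase, was at 94.4, 0, 6.45 and 8.99 CPM in WT vehicle mice and at 52.9, 32.1, 49.8 and 18.6 CPM in WT IL1β mice. The knockout mice were at 73.2, 36.9, 3.75 and 15.2 CPM with vehicle and at 39.9, 53.5, 74.5 and 36.5 CPM with IL1β. WT vehicle mouse 2 had 16 cells and 39897 UMIs, so that a count of 0 allows up to 75.2 CPM there, counting error only. The log2 fold changes with IL1β were 0.85 (SE 0.67) in WT and 0.75 (SE 0.53) in *Tet2*-KO mice, and neither passed (adjusted p = 0.546 and 0.423, edgeR). In alternative settings they passed in 2 of 36 and 3 of 36.

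*Dusp6*, the cytoplasmic ERK phosphatase, ranged from 24.7 to 100 CPM in WT vehicle, from 0 to 74.5 CPM in WT IL1β, from 17.3 to 65.9 CPM in *Tet2*-KO vehicle and from 7.45 to 93.1 CPM in *Tet2*-KO IL1β mice. All 4 ranges overlapped, and the log2 fold changes with IL1β were 0.34 (SE 0.53) in WT and -0.05 (SE 0.47) in *Tet2*-KO mice. *Dusp7* reached at most 39.9 CPM and was listed at 0 in 3 mice. *Dusp4* had at most 4 UMIs in any mouse and *Dusp10* at most 2 UMIs, with 0 in all WT IL1β mice, and the 3 genes did not pass the filter on low counts in HSC-like cells.

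Over all cell types, 51 pairs of member and cell type passed that filter in each comparison: *Dusp1* in 16 types, *Dusp2* in 15, *Dusp5* and *Dusp6* in 8 each, *Dusp7* in 4, and *Dusp4* and *Dusp10* in 0. With IL1β in WT mice, 7 of the 51 were higher and 1 lower (15.7%), against 8.71% of all tests over the same cell types. With IL1β in *Tet2*-KO mice, 6 were higher and 1 lower (13.7%), against 10.6% of all tests. The cell types of 1 mouse share its pool and preparation, so these counts are not independent. The p-values measure the spread between mice, and pools of 2 mice are nested in the groups.

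**Figure D2:**
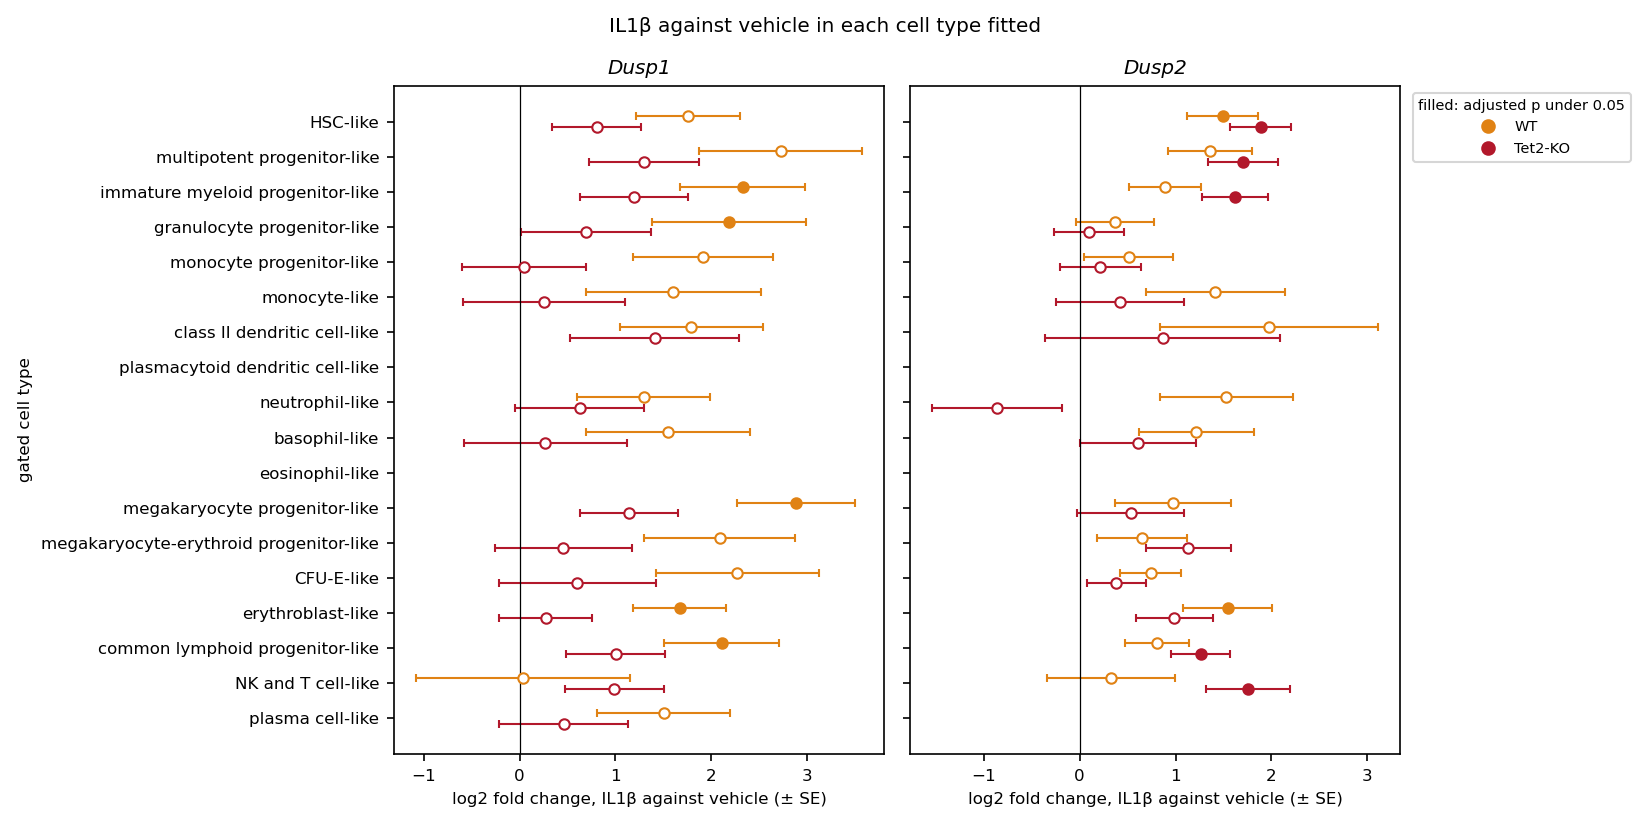
Log2 fold change of *Dusp1* and *Dusp2* (horizontal axes) with IL1β against vehicle, by cell type (vertical axis) and genotype (colours), with bars of 1 standard error (edgeR); filled points passed an adjusted p of 0.05. *Dusp1* passed in 5 types in WT and 0 in *Tet2*-KO mice, and *Dusp2* in 2 and 5.

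*Dusp1* accounted for 5 of the 7 higher calls in WT mice, and its log2 fold change was above 0 in 16 of 16 types in either genotype. It rose in megakaryocyte progenitor-like cells by 2.88 (SE 0.62, adjusted p = 0.0169), from 48.4, 8.69, 17.7 and 6.49 CPM with vehicle to 266, 87.9, 65.0 and 79.7 CPM with IL1β. These groups did not overlap. It rose in immature myeloid progenitor-like cells by 2.33 (SE 0.65, adjusted p = 0.0263), from 69.0, 99.2, 51.8 and 23.1 to 572, 222, 120 and 137 CPM, again without overlap. How many of all genes are placed so was counted in HSC-like cells only, so it is not known how common this is here. The other calls were in granulocyte progenitor-like cells (2.19, SE 0.80, adjusted p = 0.0473), common lymphoid progenitor-like cells (2.11, SE 0.60, adjusted p = 0.0409) and erythroblast-like cells (1.67, SE 0.48, adjusted p = 0.0314). In granulocyte progenitor-like cells the WT groups overlapped, at 39.3, 37.1, 12.5 and 13 CPM with vehicle and 248, 117, 49.1 and 35.6 CPM with IL1β. Of all genes tested in this type, 28.1% passed with IL1β in WT mice. In *Tet2*-KO mice *Dusp1* passed in 0 of 16 types, with a median log2 fold change of 0.66 against 1.85 in WT mice. The difference between the genotypes in the response to IL1β was itself tested and *Dusp1* passed in 0 of 16 types, with 1 at an unadjusted p under 0.05 (megakaryocyte progenitor-like cells, -1.74, SE 0.82, adjusted p = 1.00).

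The *Dusp1* calls depended on the model and on single libraries. In WT mice *Dusp1* passed in 1 type with DESeq2, in 1 with each library taken as 1 replicate and in 0 with limma-voom and an estimated correlation within libraries. With no filter on low counts it passed in 15 types, and with the pool number or the mouse number as a block in 11, HSC-like cells among them. Without WT IL1β mouse 1, or without its library, *Dusp1* passed in 0 types in WT mice, and likewise without the library of WT vehicle mice 3 and 4. Without the library of *Tet2*-KO vehicle mice 1 and 2 it passed in 9 types in *Tet2*-KO mice. Leaving out a library of the other genotype moved the WT count to 8 or 9 types.

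*Dusp1* also differed between the pools within the groups, a split noticed after its values were seen. In granulocyte progenitor-like cells, both mice of the first pool lay above both mice of the second pool in each of the 4 groups: *Tet2*-KO vehicle mice were at 83.8 CPM or more against 17.2 CPM or less, and *Tet2*-KO IL1β mice at 113 and 219 against 34 and 25.1 CPM. The same held in all 4 groups in 6 of the 9 cell types in which every mouse was measured, and in 41 of 49 combinations of group and type (83.7%). For *Dusp2* it held in 25 of 49, for *Dusp5* in 21, for *Dusp6* in 19 and for *Dusp7* in 6, and for none of these in all 4 groups of a type. In HSC-like cells it held in 2 of 4 groups for *Dusp1* and in 3 of 4 for *Dusp6*. Among all 11150 genes with at least 100 UMIs in granulocyte progenitor-like cells, 0.386% were split in this way in all 4 groups, and among 18 genes known to respond to tissue dissociation and handling, 10 were. In the other 8 types the count of such handling genes ran from 0 of 15 in megakaryocyte progenitor-like cells, over 3 of 16 in HSC-like cells, to 7 of 14 in plasma cell-like cells. The labels do not say whether pools with the same numbers were prepared together.

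*Dusp2* calls in *Tet2*-KO mice lay in immature cells and in the lymphoid lineage. Besides HSC-like cells, *Dusp2* rose in multipotent progenitor-like cells by 1.70 (SE 0.36, adjusted p = 0.00900, edgeR, 3 mice per group), in immature myeloid progenitor-like cells by 1.62 (SE 0.35, adjusted p = 0.00286), in common lymphoid progenitor-like cells by 1.26 (SE 0.31, adjusted p = 0.0203) and in NK and T cell-like cells by 1.76 (SE 0.44, adjusted p = 0.0196). In common lymphoid progenitor-like cells, which express *Dntt* and give rise to B and T cells, the 4 vehicle mice were at 298, 182, 139 and 233 CPM and the 4 IL1β mice at 531, 424, 661 and 551 CPM. The groups did not overlap, and how many of all genes are placed so in this type was not counted. This call was lost with stricter gates, with classes by marker score and without vehicle mouse 3 or IL1β mouse 3, and its values over the alternatives ran from 0.20 to 1.49. The call in immature myeloid progenitor-like cells was lost with classes by marker score (values over the alternatives 0.40 to 2.31), and that in multipotent progenitor-like cells without IL1β mouse 2, vehicle mouse 3 or vehicle mouse 4 (0.97 to 2.17). The call in NK and T cell-like cells passed in 25 of 35 alternative settings (0.63 to 2.49) and was lost with DESeq2, limma-voom, hashtags by ratio and stricter gates. In WT mice the corresponding values were 0.80 (SE 0.33, adjusted p = 0.184) in common lymphoid progenitor-like and 1.36 (SE 0.44, adjusted p = 0.0981) in multipotent progenitor-like cells. Over the 15 types tested, the median log2 fold change of *Dusp2* was 0.97 in WT and 0.86 in *Tet2*-KO mice. It was above 0 in 15 types in WT and in 14 in *Tet2*-KO mice. In granulocyte progenitor-like cells the log2 fold changes of *Dusp2* were 0.37 (SE 0.41) in WT and 0.10 (SE 0.37) in *Tet2*-KO mice. In WT mice the second *Dusp2* call was in erythroblast-like cells (1.54, SE 0.46, adjusted p = 0.0382), where 2 to 13 UMIs of *Dusp2* per mouse were counted. It passed in 23 of 36 alternative settings and was lost with DESeq2, limma-voom, classes by marker score, at least 30 cells per mouse, and without WT IL1β mouse 1, 2 or 4 or WT vehicle mouse 1 or 4. Without the library of *Tet2*-KO vehicle mice 3 and 4, *Dusp2* passed in 0 types in *Tet2*-KO mice, and without that of *Tet2*-KO IL1β mice 1 and 2 it passed in 1.

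*Dusp5* rose in 1 test, in immature myeloid progenitor-like cells of *Tet2*-KO mice, by 2.00 (SE 0.56, adjusted p = 0.0178). The vehicle mice were at 37.3, 12.3, 2.14 and 8.39 CPM and the IL1β mice at 87.6, 67.6, 66.8 and 24.6 CPM, so that 1 IL1β mouse lay within the vehicle range. These levels rest on 1 to 19 UMIs per mouse, and the call passed in 26 of 34 alternative settings, with values from -0.05 to 3.11. It was lost with DESeq2, with classes by marker score, with at least 30 cells per mouse, without vehicle mouse 3 or 4 or IL1β mouse 2, and without the library of vehicle mice 3 and 4 or of IL1β mice 1 and 2. *Dusp6* passed in no type. In basophil-like cells, where it was highest, it was at 64.3, 13.1, 62.7 and 81.3 CPM in WT vehicle, 164, 115, 77.2 and 57.2 CPM in WT IL1β, 107, 52.3, 40.2 and 54.7 CPM in *Tet2*-KO vehicle and 111, 137, 90.1 and 87.8 CPM in *Tet2*-KO IL1β mice. Its groups overlapped in both genotypes.

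*Dusp7* moved the other way. This cytoplasmic ERK phosphatase fell in granulocyte progenitor-like cells, the *Elane* and *Ms4a3* expressing precursors of neutrophils, in both genotypes. In WT mice it was at 10.3, 7.21, 15.2 and 14.1 CPM with vehicle and at 7.86, 7.37, 7.05 and 12.0 CPM with IL1β. Knockout mice were at 11.6, 12.1, 10.6 and 13.7 CPM with vehicle and at 7.04, 10.8, 7.30 and 7.20 CPM with IL1β. The WT groups overlapped, since WT vehicle mice 1 and 2 lay within the IL1β range, and the *Tet2*-KO groups overlapped through IL1β mouse 2. The log2 fold changes were -0.83 (SE 0.19, adjusted p = 0.00369) and -0.72 (SE 0.17, adjusted p = 0.00243), and each passed in 35 of 36 alternative settings. Calls are common in this type, where 28.1% of all genes tested passed with IL1β in WT and 39% in *Tet2*-KO mice. The WT call was lost without the library of WT vehicle mice 3 and 4 (-0.43), and the *Tet2*-KO call with classes by marker score. In monocyte progenitor-like cells the values were -0.52 (SE 0.18, adjusted p = 0.0520) and -0.40 (SE 0.18, adjusted p = 0.167).

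**Figure D3:**
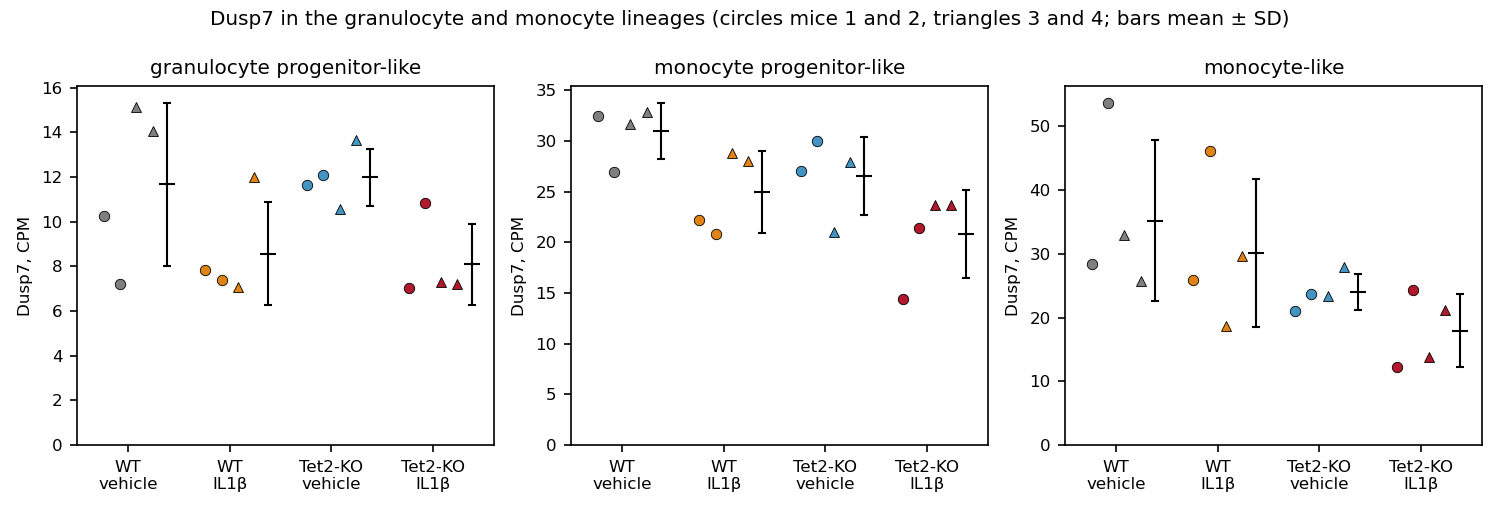
*Dusp7* level (vertical axes, CPM) in each mouse of the 4 groups in granulocyte progenitor-like, monocyte progenitor-like and monocyte-like cells (circles mice 1 and 2, triangles mice 3 and 4), with group means and bars of 1 SD. In granulocyte progenitor-like cells the means were 11.7 and 12.0 CPM in the WT and *Tet2*-KO vehicle mice and 8.57 and 8.09 CPM in the IL1β mice.

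Between the genotypes no member passed the test in any cell type. With vehicle 0 of 51 tests passed and 5 had an unadjusted p under 0.05, while 0.0338% of all tests passed. With IL1β 0 of 51 passed and 8 had an unadjusted p under 0.05, against 0.0718% of all tests. In HSC-like cells no gene passed with vehicle (percentage called 0.0, 242 of 6402 genes at an unadjusted p under 0.05) or with IL1β (0.0, 409 genes). *Dusp1*, *Dusp2*, *Dusp5* and *Dusp6* belong to an inflammation signature that the study compared between genotypes on these same samples, so their direction here is not independent evidence of it. With vehicle, *Dusp1* was 1.32 higher in *Tet2*-KO HSC-like cells (SE 0.54, unadjusted p = 0.0192, adjusted p = 1.00, edgeR). That difference was 1.78 in mice 1 and 2 and 0.18 in mice 3 and 4 on the log2(CPM + 1) scale, and its test passed in 2 of 36 alternative settings. With IL1β, *Dusp2* was 0.74 higher in *Tet2*-KO HSC-like cells (SE 0.32, unadjusted p = 0.0260, adjusted p = 0.744, edgeR), with a difference of 0.86 in either pool. This test passed in 1 of 36 alternative settings. The remaining genotype values in HSC-like cells with IL1β were 0.37 (SE 0.47) for *Dusp1*, 0.19 for *Dusp5* and -0.27 for *Dusp6*. The genotype comparison of *Dusp2* with vehicle gave 0.35 (SE 0.37).

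The test of whether the IL1β response differed between genotypes passed for 0 of 51 member tests, with 2 at an unadjusted p under 0.05, against 0.0426% of all tests. In HSC-like cells 0.0% of genes passed (247 at an unadjusted p under 0.05). The difference in response was 0.39 (SE 0.49) for *Dusp2* and -0.96 (SE 0.71) for *Dusp1*, so these data leave room for differences of more than 1 log2 unit in either gene. The IL1β comparisons in the 2 genotypes share no mice.

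The highest means of the members did not all lie in the same cell type. Levels below are means over mice of log2(CPM + 1) ± SD, over all 4 groups. *Dusp1* was highest in HSC-like cells (8.12 ± 1.32, n = 16) and lowest in CFU-E-like cells, the committed erythroid progenitors (4.18). *Dusp2* was highest in common lymphoid progenitor-like (8.12 ± 0.82, n = 15) and HSC-like cells (8.05 ± 1.18, n = 16), followed by multipotent progenitor-like cells (7.46), and it too was lowest in CFU-E-like cells (3.17). *Dusp5* was highest in common lymphoid progenitor-like cells (6.00 ± 0.93) and lowest in CFU-E-like cells (0.90). For each of the 3, the difference between CFU-E-like cells and the next type did not pass (exact permutation adjusted p from 0.229 to 0.970, for *Dusp1* over 6 mice only).

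The cytoplasmic ERK phosphatases had their highest means in other types. *Dusp6* was highest in basophil-like cells (6.20 ± 0.83, n = 16), with HSC-like cells at place 3 (5.02). *Dusp7* was highest in plasmacytoid dendritic cell-like (5.31 ± 0.74, n = 6, vehicle mice only), monocyte progenitor-like (4.72) and monocyte-like cells (4.71). *Dusp10*, the JNK and p38 phosphatase, was highest in megakaryocyte progenitor-like cells (2.89 ± 0.64, n = 16), where it ranged from 2.06 to 13.1 CPM over the mice. *Dusp4* was highest in HSC-like cells (1.37 ± 1.48, n = 16) and was at 0 UMIs in 8 of the 16 mice there. In vehicle-treated WT mice alone the top type differed for *Dusp1* (basophil-like) and *Dusp6* (common lymphoid progenitor-like), and was the same for the other members. With stricter gates it was megakaryocyte-erythroid progenitor-like for *Dusp1*, HSC-like for *Dusp2* and multipotent progenitor-like for *Dusp4*, and by marker score HSC-like for *Dusp2*, multipotent progenitor-like for *Dusp5* and monocyte-like for *Dusp7*.

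**Figure D4:**
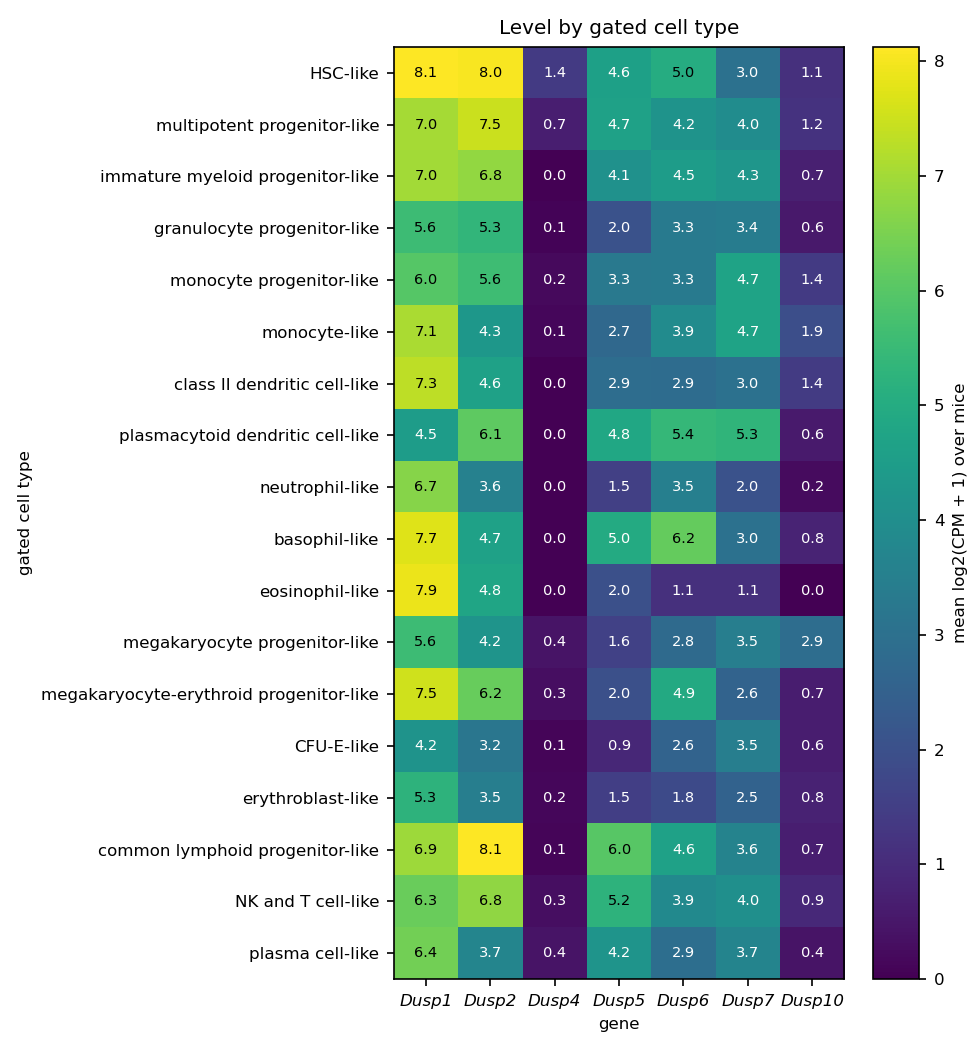
Mean level of each member (columns) in each of 18 marker-gated cell types (rows), given as a number and a colour (log2(CPM + 1), mean over the mice with at least 10 cells of the type). *Dusp1* is highest in HSC-like cells (8.12), *Dusp2* and *Dusp5* in common lymphoid progenitor-like cells (8.12 and 6.00), *Dusp6* in basophil-like (6.20), *Dusp7* in plasmacytoid dendritic cell-like (5.31) and *Dusp10* in megakaryocyte progenitor-like cells (2.89).

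Of 119 pairs of neighbouring types, compared within mice by a two-sided exact permutation test, none passed after Benjamini-Hochberg adjustment (smallest adjusted p = 0.0581), and 10 had an unadjusted p under 0.05. Neighbours in an order of means are the closest types by construction. The test gives no p below 0.125 with 4 mice (eosinophil-like) or below 0.03125 with 6 (plasmacytoid dendritic cell-like). Pairs with the first type could not pass, here or below, and pairs with the second could hardly do so. With classes by marker score 3 pairs passed, and with hashtags by ratio 2. HSC-like cells were then compared with each of the other 17 types by the same test, a comparison chosen after the data were seen, over all 13549 genes with at least 50 UMIs, with p-values adjusted over all genes and types. Of 230333 pairs of gene and type, 18.3% were lower than in HSC-like cells and 9.55% higher. *Dusp2* was lower than in HSC-like cells in 14 of 17 types and higher in 0, and 1.94% of all genes were lower in as many types. *Dusp1* was lower in 12 and higher in 0 (5.44% of genes lower in as many), and *Dusp4* lower in 8 and higher in 0 (15.8%). *Dusp2* was higher in HSC-like than in multipotent progenitor-like cells by 0.69 ± 0.51 (SD over 12 mice, higher in 11, exact permutation adjusted p = 0.00822; these types are also neighbours in its order, where the same test adjusted over the 119 pairs gave 0.0581), and its difference from common lymphoid progenitor-like cells did not pass (-0.09 ± 0.60, adjusted p = 0.729, exact permutation). *Dusp5* was lower in 9 types (12.7% of genes) and higher in 1, common lymphoid progenitor-like cells (53.9% of genes higher in as many), and *Dusp6* was lower in 6 (22.9%) and higher in 0, its difference from basophil-like cells (-1.18) having an exact permutation adjusted p of 0.0753. *Dusp7* was lower in 0 and higher in 3 types (23.6% of genes higher in as many), with the largest margin in monocyte progenitor-like cells (HSC-like minus this type -1.69 ± 1.79, adjusted p = 0.00571, exact permutation). *Dusp10* was higher in 1 type (again 53.9% of genes), megakaryocyte progenitor-like cells, where the HSC-like level was lower by 1.76 on average.

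Genes with the most similar profile over the 18 types in vehicle-treated WT mice were sought among 6125 genes, by Pearson's r of mean log2(CPM + 10), as a description. *Dusp2* was most like *Aff3* (0.89), *Anks1* (0.89) and *Cd27* (0.88), and *Dusp5* was most like *Cd69* (0.91), *Rasal3* (0.90) and *Satb1* (0.89). *Cd69* encodes an early activation antigen of lymphocytes and *Satb1* a chromatin organizer of lymphoid cells. *Dusp1* was most like *Iqgap1* (0.80), *Ier2* (0.80) and *Lmo4* (0.79), of which *Ier2* is an immediate early gene. *Dusp4* was most like *Mecom* (0.86), *Hlf* (0.82) and *Vldlr* (0.77), and *Mecom* and *Hlf* helped define the HSC-like gate. Its profile rests on few counts, with 2, 0, 4 and 0 UMIs in HSC-like cells of the 4 mice used. The highest type mean was 4.63 CPM for *Dusp4* and 8.83 CPM for *Dusp10*, so the likeness of both is weakly based. *Dusp6* was most like *Foxp1* (0.89), *Mast3* (0.87) and *Znrf1* (0.86). *Dusp7* was most like *Irf8* (0.82), the transcription factor of monocytes and dendritic cells, *Rasa4* (0.80) and *Fbxw4* (0.79), and *Dusp10* like *Hpgd* (0.83), *Gnb1* (0.80) and *Ece1* (0.79).

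Transcripts of the MAP kinase cascades around the phosphatases were read in HSC-like cells beside the 4.12% (WT) and 8.47% (*Tet2*-KO) of all genes that passed with IL1β there. Of 20 ERK cascade genes 17 were tested, and with IL1β 0 passed in WT and 1 in *Tet2*-KO mice, *Map3k8*, an activating kinase of the ERK pathway downstream of NF-kB signalling (3.16 higher, SE 0.68, adjusted p = 0.00333, edgeR). Of 25 JNK and p38 cascade genes 15 were tested, with 0 in WT and 1 in *Tet2*-KO mice, *Tab2*, an adaptor of the IL1 receptor pathway (0.94 higher, SE 0.20, adjusted p = 0.00254, edgeR). None of 9 tested genes of other ERK brakes such as the Sprouty and Spred families passed in either genotype, and of 15 further dual specificity phosphatases 1 was tested and did not pass. The medians of these lists lay between -0.21 and 0.36, where the medians of all genes were 0.01 and 0.02.

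Among 17 transcripts induced through ERK, 9 were tested in HSC-like cells. Beside the 4.12% of all genes, 3 of the 9 rose with IL1β in WT mice: *Phlda1* by 3.51 (SE 0.87, adjusted p = 0.0145), *Ier3* by 1.78 (SE 0.42, adjusted p = 0.0109) and *Mcl1*, a survival factor, by 1.05 (SE 0.25, adjusted p = 0.0101). In *Tet2*-KO mice 2 of the 9 rose, beside 8.47% of all genes: *Phlda1* by 4.60 (SE 0.77, adjusted p = 0.000479) and *Ier3* by 1.82 (SE 0.36, adjusted p = 0.00149). *Ier3* is also on the handling list below and counts there too. The list medians were 0.54 and 0.13. No gene of these 5 lists passed between genotypes in HSC-like cells.

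Genes that respond to tissue dissociation and handling differed between the groups too, and their part in the results was not tested. Several of them, *Fos*, *Ier2* and *Btg2* among them, also belong to the inflammation signature of the study. Handling and inflammatory signals therefore cannot be told apart by this list. Their summed level in HSC-like cells (18 genes; lowest, median and highest mouse) was 4730, 7263 and 7688 CPM in WT vehicle, 8365, 9285 and 12828 CPM in WT IL1β, 6912, 9589 and 17028 CPM in *Tet2*-KO vehicle and 11663, 13133 and 15625 CPM in *Tet2*-KO IL1β mice. The WT IL1β mice all lay above the WT vehicle mice, and of single genes tested in HSC-like cells 6.37% were placed so. The *Tet2*-KO groups overlapped, with the highest vehicle mouse above all IL1β mice. Of 16 tested genes, 5 rose with IL1β in the WT and 4 in the knockout comparison (all genes 4.12% and 8.47%), among them *Junb* by 2.50 (SE 0.38, adjusted p = 8.49e-05) and 2.01 (SE 0.33, adjusted p = 0.000479), *Zfp36* by 1.51 and 1.45, and in WT mice *Btg2* by 1.62. The list's median between genotypes with vehicle was 0.93, with 0 genes called.

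How the members followed these genes over the 16 mice is given as a description, since the mice share pools and groups and the pairs of genes were chosen after their values were seen. In log2(CPM + 1), *Dusp1* followed the summed handling genes with Pearson's r = 0.92 and Spearman's rho = 0.93, and r = 0.88 without the 2 mice farthest from the median. After subtracting each group's mean r was 0.90, so the relation was present within groups. With the same sum, r was 0.64 for *Dusp2* (rho 0.65), 0.58 for *Dusp5* (rho 0.64) and 0.16 for *Dusp6* (rho 0.21). After group means r was 0.45, 0.35 and 0.42, so these 3 were close to each other within groups. *Dusp2* followed *Junb* with r = 0.89, rho = 0.86 and 0.73 after group means, and *Zfp36* with r = 0.82, and for *Fos* r was 0.03, and 0.07 after group means. For *Dusp1* the values were 0.77 with *Junb*, 0.84 with *Zfp36* and 0.63 with *Fos*, the last 0.78 after group means. With *Junb* after group means, r was 0.58 for *Dusp1*, and rho was 0.54 for *Dusp2* and 0.53 for *Dusp1*. With *Zfp36* after group means, r was 0.59 for *Dusp2* and 0.72 for *Dusp1*. Differences between these correlations were not tested. The 2 phosphatases followed each other with r = 0.64 and, after group means, 0.34, while *Dusp1* and *Dusp5* did so with 0.71 and 0.56.

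**Figure D5:**
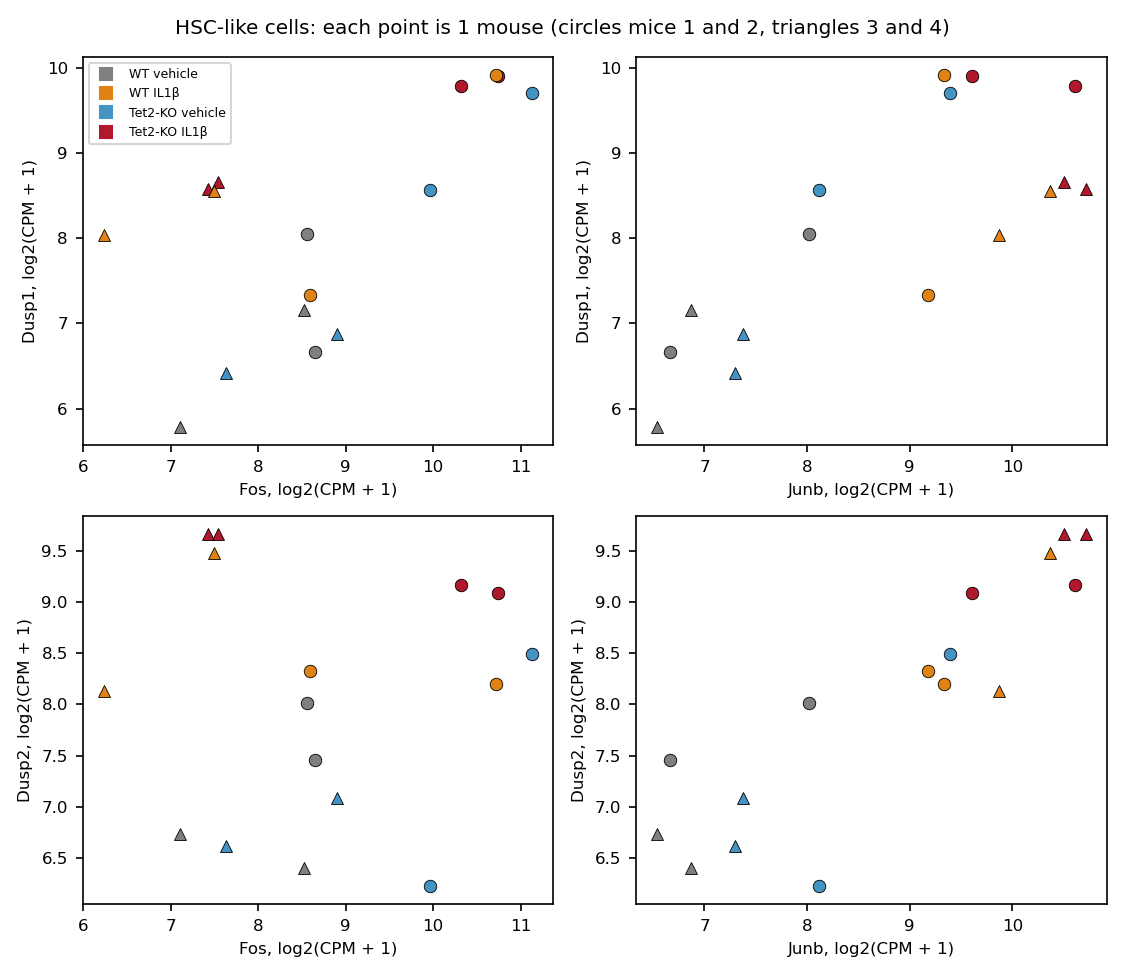
*Dusp1* and *Dusp2* against *Fos* and *Junb* in HSC-like cells, 1 point per mouse for 16 mice, both axes in log2(CPM + 1), coloured by group (circles mice 1 and 2, triangles mice 3 and 4). *Dusp2* rises with *Junb* (r = 0.89) and not with *Fos* (r = 0.03), and *Dusp1* rises with both (0.77 and 0.63).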

How the data were processed

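Lineage-depleted marrow of 16 mice had been profiled by 10x 3′ v3.1 chemistry with TotalSeq-A hashtags. The deposited matrices hold raw UMI counts per gene and cell, and raw hashtag counts, made by the authors with Cell Ranger 3.1.0 (mm10); Seurat 3.2.3 is named in the submitters' processing notes. Barcodes with at least 750 genes and at most 10% mitochondrial UMIs were kept. Hashtags were called in Seurat 5.3.0, which gave 57896 cells to 1 mouse, 3938 to both hashtags of a pool (left out as doublets) and 33083 to none. Cell types were gated on fixed markers with thresholds set after marker levels were seen, and 3576 cells (3.77%) in several gates were left out. UMIs were summed per mouse and type (at least 10 cells), filtered with filterByExpr, normalized by TMM and tested with edgeR 4.0.16 (glmQLFit, glmQLFTest), 1 fit over 4 groups per type, Benjamini-Hochberg adjusted over the 1626 to 10699 genes tested there. The test was checked on simulated counts. Alternatives used DESeq2 1.42.0 and limma 3.58.1. Members and gene lists were chosen with earlier results of these data known. All members are named, and listed genes when among the 6 smallest adjusted p of a comparison in HSC-like cells. Plasmacytoid dendritic cell-like cells had no IL1β mice with 10 cells, and eosinophil-like cells were not fitted. Over all genes, replicate numbers showed no pairing of the mice. Over 24 pairs of same-numbered mice in HSC-like cells, correlations of deviations from group means ran from -0.065 to 0.083 (none above 0.1). In granulocyte progenitor-like cells they ran from -0.17 to 0.117 (2 above 0.1). There, 5 of 48 pairs with the same pool number and 6 of 48 with different ones were above 0.1. Correlations over all genes cannot exclude pairing in single genes, and *Dusp1* was split by pool number. Same-numbered vehicle and IL1β mice were also of opposite sex in the *Tet2*-KO groups, and partly so in the WT groups. Intervals for counts of 0 cover counting error only.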

Additional observations from a re-analysis of the deposited data

Results flagged for a closer look

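Among 66 groups of 4 mice, 11 held a mouse that stood apart from the other 3, by a gap above Dixon's 95% critical value. Chance flags about 1 in 20 groups, and these groups share mice. In HSC-like cells, *Dusp2* was at 711 CPM in WT IL1β mouse 3 (others 279 to 321 CPM), the mouse whose hashtag held cells of both mice of its pool. *Dusp5* was at 94.4 CPM in WT vehicle mouse 1 (others at most 8.99), and *Dusp7* at 19.5 CPM in *Tet2*-KO vehicle mouse 1 (others 9.22 to 10.8). The other HSC-like flags rest on 1 to 3 UMIs: *Dusp4* at 4.59 CPM in *Tet2*-KO IL1β mouse 2, *Dusp10* at 2.25 CPM in WT vehicle mouse 4 and *Dusp10* at 9.22 CPM in *Tet2*-KO vehicle mouse 2.

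In other cell types, *Dusp1* was at 266 CPM in megakaryocyte progenitor-like cells of WT IL1β mouse 1 (others 65.0 to 87.9). *Dusp2* was low in immature myeloid progenitor-like cells of *Tet2*-KO IL1β mouse 4, at 129 CPM (others 292 to 315), and high in common lymphoid progenitor-like cells of WT vehicle mouse 1, at 337 CPM (others 123 to 155). *Dusp7* in granulocyte progenitor-like cells was highest in WT IL1β mouse 4, at 12.0 CPM (others 7.05 to 7.86), and in *Tet2*-KO IL1β mouse 2, at 10.8 CPM (others 7.04 to 7.30).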

How the results depend on the processing

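The IL1β calls were 8 in WT and 7 in *Tet2*-KO mice. In WT mice they were 2 with DESeq2, 2 with limma-voom and an estimated correlation within libraries, 5 with libraries as replicates and 22 with no filter on low counts, and from 0 to 13 when a mouse or library was left out. In *Tet2*-KO mice they were 14 with no filter, 11 with hashtags called by ratio, 3 with stricter gates, 4 with classes by marker score and 4 with at least 30 cells, and from 1 (without the library of vehicle mice 3 and 4) to 20 (without that of vehicle mice 1 and 2). The calls between genotypes, 0 in the reported fits, were 8 with vehicle, 5 with IL1β and 5 for the interaction with no filter, and reached 4 with vehicle and 1 with IL1β (lowest 0) when a mouse or library was left out. Neighbouring cell types differed in 3 pairs by marker score and 2 with hashtags by ratio. The cause was not tested. Leaving out whole libraries and the sex covariate were chosen after the data were seen.

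Replicate numbers did not pair the mice over all genes, so the block was an alternative. With the pool number as a replicate block the IL1β calls were 14 in WT and 11 in *Tet2*-KO mice, and with the mouse number 13 and 12. Of these, *Dusp1* made 11 in WT and 3 in *Tet2*-KO mice with the pool number, and 11 and 4 with the mouse number, against 5 and 0 without a block. *Dusp1* in WT HSC-like cells then passed for IL1β. The block on pool number turned the HSC-like log2 values of *Dusp5* in the interaction (0.16), *Dusp6* with IL1β in WT mice (-0.11) and *Dusp6* between genotypes with vehicle (-0.11), and the block on mouse number the same values (0.75, -0.13 and -0.11).

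None of the HSC-like values that changed sign had passed the test in the reported fit. Some passed in alternative settings: *Dusp1* with IL1β in *Tet2*-KO mice in 6 of 36 and *Dusp1* between genotypes with vehicle in 2 of 36. *Dusp5* with IL1β passed in 2 of 36 in WT and 3 of 36 in *Tet2*-KO mice. *Dusp6* is the member whose sign was least settled. With IL1β in WT mice it was -0.38 by marker score, -0.28 with hashtags by ratio and -0.13 with libraries as replicates, and -0.40 to 0.66 with mice or libraries left out. With IL1β in *Tet2*-KO mice it was 0.18 by marker score and 0.14 with stricter gates, and -1.68 to 0.71 with mice or libraries left out. Between genotypes with vehicle it was -0.0032 with DESeq2, -0.20 by marker score, -0.15 with hashtags by ratio and -0.049 with libraries as replicates (-0.62 to 0.86 when left out). Between genotypes with IL1β it was 0.36 by marker score and 0.038 with libraries as replicates (-1.89 to 0.50). Its interaction was 0.56 by marker score, 0.062 with hashtags by ratio and 0.087 with libraries as replicates (-2.01 to 0.36).

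For *Dusp5* the interaction was 0.29 with DESeq2 and 0.046 with libraries as replicates (-1.76 to 1.55 with mice or libraries left out), and the genotype difference with IL1β was -0.21 by marker score, -0.077 with sex as a covariate and -0.10 with stricter gates. Its IL1β values ran from -0.81 to 2.51 in WT and from -0.32 to 2.36 in *Tet2*-KO mice, and its genotype difference with vehicle from -1.36 to 1.96, with mice or libraries left out. For *Dusp1* the genotype difference with IL1β was -0.18 with at least 30 cells and -0.31 to 1.16 when left out, the interaction was 0.030 with hashtags by ratio and -1.83 to 0.76 when left out, the IL1β value in *Tet2*-KO mice ran from -0.045 to 2.54, and the genotype difference with vehicle from -0.41 to 2.19. For *Dusp2* the interaction was -0.10 with stricter gates and -0.17 to 1.16 when left out, and the genotype difference with vehicle ran from -0.41 to 0.92. Depth limits *Dusp4*, *Dusp10* and, in HSC-like cells, *Dusp7*.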
